A study of Mus musculus with 6 samples.

Results

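Secreted inhibitors of Wnt signalling and the R-spondin receptor Lgr6 were examined in the apex of mouse hearts, through every probe set that the array annotation assigns to Sfrp1, Sfrp2, Sfrp4, Sfrp5, Frzb, Sost, Dkk3, Wif1 or Lgr6. These 9 of the 18193 genes named on the array are covered by 18 of the 45101 probe sets on the array, each of which is a group of probes for a transcript. The genes were chosen by family and by differences already known from this comparison, so the values of these probe sets are given as a description and no test of them is used. The mice were males, 6 to 7 weeks old, and RNA from each of their 6 hearts was read on an Affymetrix array of its own. In 3 hearts (aMHC_Cre 1 to 3) the genotype was Fog2flox/delta with the alpha MHC Cre transgene, whose promoter is active in cardiomyocytes and whose recombinase can there remove the floxed segment of Fog2. The other 3 hearts (no_Cre 1 to 3) were Fog2flox/delta with no Cre. All 6 animals therefore carried a deleted allele of Fog2, the gene now named Zfpm2, which encodes a cofactor of GATA transcription factors, and none was wild type. No animal carried Cre without a floxed allele, so Cre itself and the deletion cannot be told apart.

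Wnt proteins are secreted lipid-modified ligands that bind Frizzled receptors together with the co-receptors Lrp5 or Lrp6, and in the best-known branch of the pathway this stabilises β-catenin. Secreted frizzled-related proteins (the Sfrp genes and Frzb) carry a cysteine-rich domain like that of Frizzled and bind Wnts outside the cell, as does Wif1 through a domain of its own. Sclerostin, the product of Sost, instead binds the Lrp co-receptors, and is best known as a product of osteocytes in bone. Dkk3 belongs to the Dickkopf family, although its action on Wnt signalling is less settled than that of its relatives. Lgr6 works on the other side of the balance, since R-spondins bound to Lgr receptors remove the ligases Znrf3 and Rnf43 that clear Frizzled from the cell surface. Several Sfrp genes are known products of cardiac fibroblasts.

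Promoter windows from RefSeq (build GRCm38.p6), from 250 bases before to 50 bases after an annotated transcript start, were found for 6 of the 9 genes: Frzb, Lgr6, Sfrp2, Sfrp5, Sost and Wif1. They were searched on both strands for a GATA motif (the letters AGATAA or AGATAG or TGATAA or TGATAG) because Fog2 acts through GATA factors, and for a TCF/LEF motif (the letters CTTTGAA or CTTTGAT or CTTTGTA or CTTTGTT) because those factors carry the β-catenin signal. The windows of the 4 genes with the widest gaps between the groups among these 6 are shown 5′ to 3′ on the gene's strand, with motif matches in capitals.
Sost, chr11:101966966-101967265, minus strand: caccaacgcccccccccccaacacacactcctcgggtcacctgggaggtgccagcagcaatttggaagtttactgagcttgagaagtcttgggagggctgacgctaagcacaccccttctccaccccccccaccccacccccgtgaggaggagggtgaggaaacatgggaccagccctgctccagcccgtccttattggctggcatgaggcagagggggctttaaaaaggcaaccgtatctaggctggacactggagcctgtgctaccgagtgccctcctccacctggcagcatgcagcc
Sfrp2, chr3:83766071-83766370, plus strand: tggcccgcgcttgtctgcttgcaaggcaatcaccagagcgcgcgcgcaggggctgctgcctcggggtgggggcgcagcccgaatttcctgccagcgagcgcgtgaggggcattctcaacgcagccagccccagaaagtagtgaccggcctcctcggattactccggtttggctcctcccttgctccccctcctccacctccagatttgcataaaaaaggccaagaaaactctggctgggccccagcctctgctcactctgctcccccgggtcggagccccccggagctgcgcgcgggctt
Frzb, chr2:80447347-80447646, minus strand: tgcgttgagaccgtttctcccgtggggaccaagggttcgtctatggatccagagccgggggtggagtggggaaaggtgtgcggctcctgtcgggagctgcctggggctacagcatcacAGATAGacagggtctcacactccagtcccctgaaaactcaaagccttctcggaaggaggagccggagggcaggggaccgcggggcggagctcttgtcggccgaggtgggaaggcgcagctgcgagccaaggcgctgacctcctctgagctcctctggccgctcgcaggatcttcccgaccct
Lgr6, chr1:135105227-135105526, minus strand: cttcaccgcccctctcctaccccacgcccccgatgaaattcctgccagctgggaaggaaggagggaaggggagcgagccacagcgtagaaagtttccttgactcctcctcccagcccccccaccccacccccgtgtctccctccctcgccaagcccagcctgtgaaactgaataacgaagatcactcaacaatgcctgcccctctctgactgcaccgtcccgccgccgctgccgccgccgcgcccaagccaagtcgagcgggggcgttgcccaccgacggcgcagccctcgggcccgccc
Of these 4 windows, Frzb held 1 GATA match, which began at position -132 from the start, and Sost, Sfrp2 and Lgr6 held none. Sfrp5, which is not shown, held 2 GATA matches, and Wif1 held none. None of the 6 windows held a TCF/LEF match. Among all 32851 windows in the same collection 29.8% held a GATA match and 16.9% a TCF/LEF match, so the letters are common and their presence or absence in so short a window is a description only.

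Each value below is the deposited log2 signal of a probe set in a heart, given for hearts 1, 2 and 3 of a group in that order, and each difference is hearts with Cre minus hearts without Cre. Of the 18 probe sets, 14 had a mean over the 6 hearts that was high enough to enter the fit across the array, for which the lowest mean was 5.16. The other 4 (both of Dkk3, 1 of Frzb and 1 of Sfrp5) were dimmer, and their differences come from a fit of all probe sets. Values did not overlap between the groups for 11 of the 18, with 9 higher and 2 lower with Cre, beside 9.44% of all 45037 non-control probe sets that were higher without overlap and 10.0% that were lower. In the limma fit 6 of the 14 that entered had an adjusted p under 0.05 and a higher mean with Cre, and 2 a lower mean, beside 3.43% and 1.79% of all 27022 probe sets tested. Nothing is read from these counts, because this comparison also guided the choice of genes. Without aMHC_Cre 2 the fit called 4 of the 14, and without a filter on dim probe sets it called 2 of the 18, a Sost and a Dkk3 probe set.

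**Figure D1:**
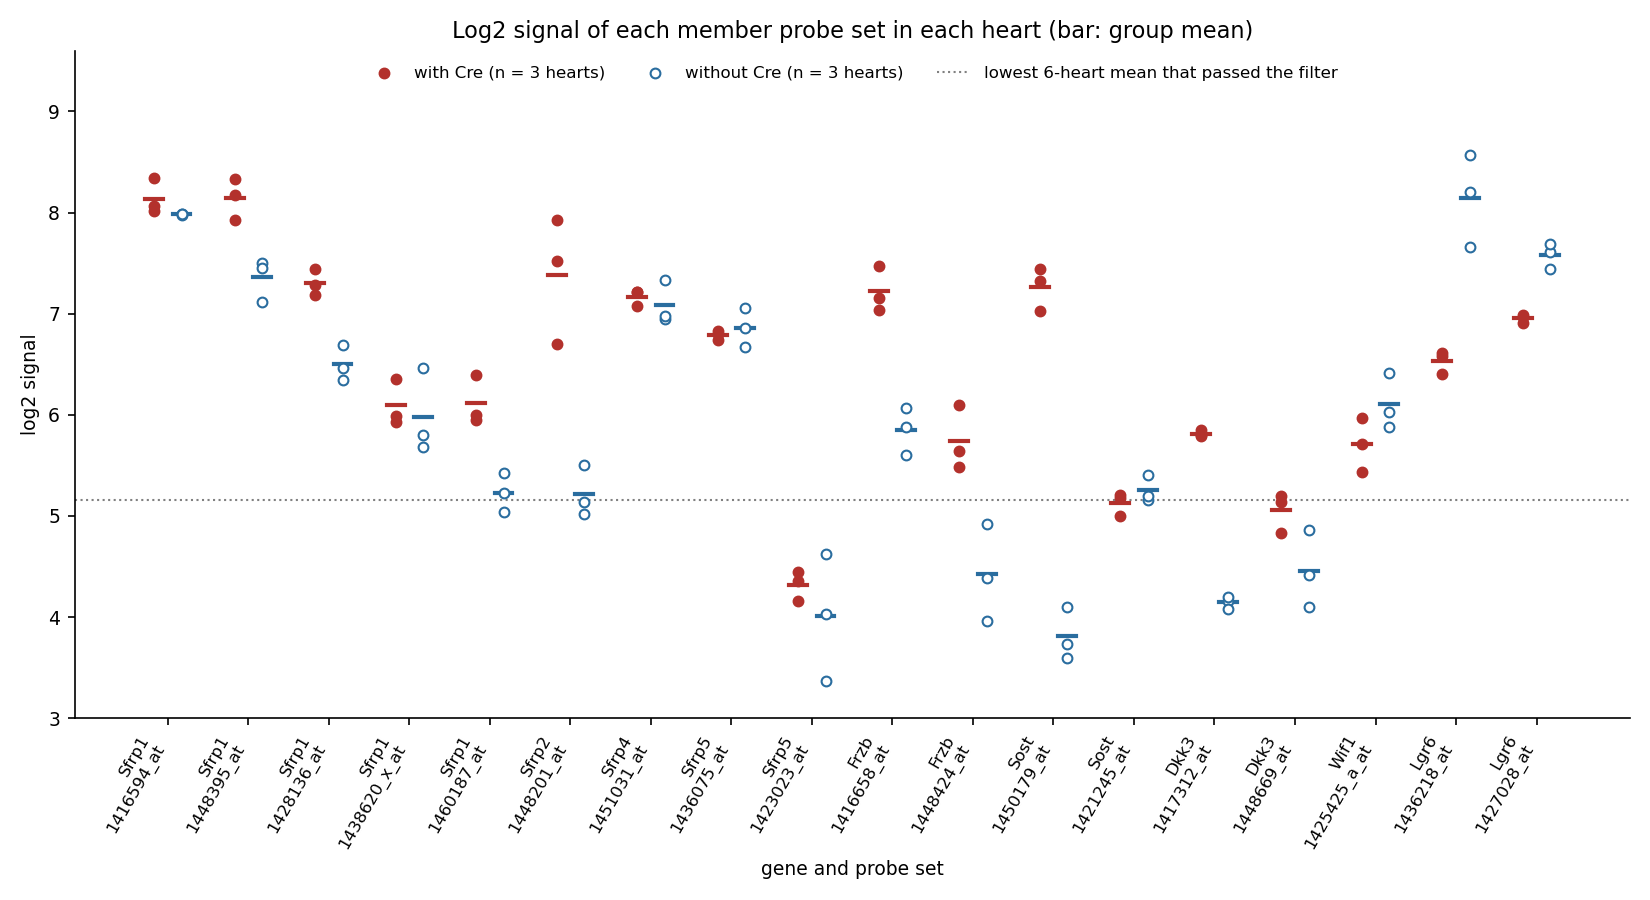
Log2 signal (vertical axis) of the 18 member probe sets in each heart, with 3 hearts with Cre as filled red points, 3 hearts without Cre as open blue points and bars at the group means. The dotted line marks 5.16, the lowest mean over 6 hearts that entered the fit. The groups stand apart for 11 probe sets, most widely for Sost 1450179_at, and overlap for 7.

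Sost gave the widest gap of all member probe sets, but only through 1 of its 2 probe sets. Probe set 1450179_at read 7.03, 7.44 and 7.32 in hearts with Cre, against 4.10, 3.74 and 3.60 in hearts without Cre. Every heart with Cre lay at least 2.93 above every heart without Cre on the log2 scale. The difference was 3.45 ± 0.17 (SE, n = 3 hearts per group), or 10.9-fold. The no_Cre mean of 3.81 lies under the level needed to enter the fit, so this probe set entered through its values with Cre. With 16 added to the unlogged signal, which damps differences between dim values, the difference was 2.49, and with 64 added it was 1.48. The other Sost probe set, 1421245_at, read 5.18, 5.00 and 5.21 with Cre, against 5.16, 5.20 and 5.40 without Cre. Its groups overlapped, and the difference was -0.12 ± 0.12 (SE). Both probe sets are annotated to the same sequence record, and the stretch of the transcript that each one reads is not stated.

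Of the secreted frizzled-related proteins, Sfrp2 had the largest difference. Its only probe set, 1448201_at, read 6.70, 7.52 and 7.92 in hearts with Cre, against 5.50, 5.14 and 5.02 in hearts without Cre. The groups did not overlap, and the hearts with Cre differed among themselves more (SD 0.62) than those without Cre (SD 0.25). The difference was 2.16 ± 0.28 (SE), or 4.47-fold, and 1.78 with 16 added to the unlogged signal.

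Frzb, also known as Sfrp3, was higher with Cre through both of its probe sets. Probe set 1416658_at read 7.16, 7.04 and 7.47 with Cre, against 6.06, 5.60 and 5.87 without Cre. Probe set 1448424_at, too dim to enter the fit, read 5.49, 5.64 and 6.09 with Cre, against 4.39, 4.92 and 3.96 without Cre. Neither showed overlap between the groups. The differences were 1.37 ± 0.16 and 1.32 ± 0.30 (SE), or 2.59-fold and 2.49-fold. With 16 added to the unlogged signal they were 1.17 and 0.88, and with 64 added 0.81 and 0.45, so the sizes are less alike when dim values are damped.

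Sfrp1 was measured by 5 probe sets that did not move alike. Probe set 1448395_at read 7.92, 8.17 and 8.34 with Cre, against 7.50, 7.12 and 7.45 without Cre. Probe set 1428136_at read 7.19, 7.29 and 7.44 with Cre, against 6.46, 6.35 and 6.69 without Cre, and 1460187_at read 5.95, 6.00 and 6.40 with Cre, against 5.23, 5.04 and 5.43 without Cre. These 3 probe sets separated the groups, with differences of 0.78 ± 0.15, 0.80 ± 0.13 and 0.89 ± 0.16 (SE). Probe set 1416594_at read 8.01, 8.06 and 8.34 with Cre, against 7.98, 7.99 and 7.99 without Cre. It also showed no overlap, but by a gap of only 0.03, and its difference of 0.15 ± 0.12 (SE) rested largely on aMHC_Cre 3 (0.05 without that heart). Probe set 1438620_x_at, whose suffix marks probes that may be shared with other transcripts, read 5.99, 5.93 and 6.36 with Cre, against 6.46, 5.80 and 5.68 without Cre. The groups overlapped there, with a difference of 0.11 ± 0.21 (SE). The Sfrp1 probe sets 1416594_at, 1448395_at and 1460187_at are annotated to the same sequence record, yet their differences ranged from 0.15 to 0.89.

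Sfrp4 and Sfrp5 showed no gap between the groups. Sfrp4 (1451031_at) read 7.07, 7.21 and 7.21 with Cre, against 6.95, 7.33 and 6.98 without Cre, a difference of 0.08 ± 0.14 (SE). The brighter Sfrp5 probe set (1436075_at) read 6.74, 6.80 and 6.83 with Cre, against 6.67, 6.86 and 7.05 without Cre, a difference of -0.07 ± 0.13 (SE). In both cases the hearts with Cre lay inside the range of the hearts without Cre. The dim Sfrp5 probe set (1423023_at) read 4.15, 4.36 and 4.44 with Cre, against 3.37, 4.03 and 4.62 without Cre, and its difference of 0.31 ± 0.33 (SE) ranged from -0.01 to 0.62 as single hearts were left out. Sfrp1, Sfrp2 and Frzb thus each had all 3 hearts with Cre above all hearts without Cre on some probe set, and Sfrp4 and Sfrp5 on none.

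Dkk3 was measured by 2 dim probe sets. Probe set 1417312_at read 5.85, 5.79 and 5.80 in hearts with Cre, against 4.16, 4.08 and 4.20 in hearts without Cre. The hearts of each group were close together (SD 0.03 with Cre and 0.06 without Cre), and the groups were 1.59 apart at their nearest. The difference was 1.67 ± 0.09 (SE), or 3.18-fold. With 16 added to the unlogged signal it was 1.10, and with 64 added it was 0.56. Probe set 1448669_at, annotated to the same sequence record, read 4.83, 5.14 and 5.20 with Cre, against 4.86, 4.42 and 4.10 without Cre. Its groups overlapped by 1 heart without Cre, and the difference was 0.60 ± 0.23 (SE).

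Wif1 (1425425_a_at) was the only inhibitor of the 8 whose probe sets all had a lower mean with Cre. It read 5.71, 5.97 and 5.44 with Cre, against 6.41, 5.88 and 6.03 without Cre. The groups overlapped, and the difference was -0.40 ± 0.18 (SE).

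Lgr6, the receptor, was lower with Cre through both of its probe sets. Probe set 1436218_at read 6.59, 6.40 and 6.61 in hearts with Cre, against 8.20, 7.66 and 8.57 in hearts without Cre. Probe set 1427028_at read 6.91, 6.99 and 6.96 with Cre, against 7.45, 7.61 and 7.69 without Cre. The groups did not overlap in either, and the hearts with Cre lay closer together (SD 0.11 and 0.04) than those without Cre (SD 0.46 and 0.13). The differences were -1.61 ± 0.21 and -0.63 ± 0.12 (SE), or 0.327-fold and 0.647-fold. The sizes thus differed between the probe sets, which are annotated to different sequence records.

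**Figure D2:**
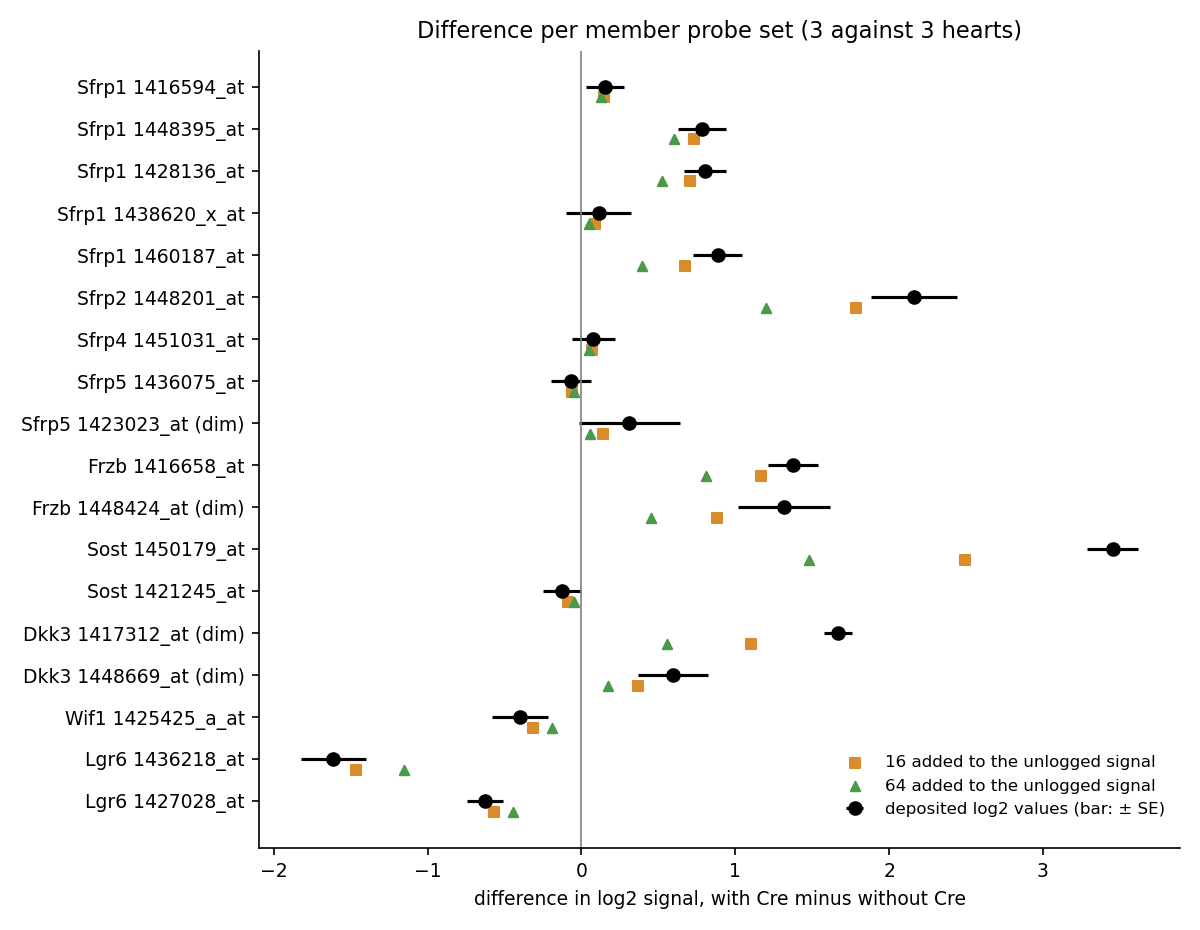
Difference in log2 signal between 3 hearts with Cre and 3 hearts without Cre for each member probe set, with bars of ± 1 SE. Squares and triangles give the same difference with 16 or 64 added to the unlogged signal, which gives Sost 1450179_at 2.49 and 1.48 in place of 3.45 and Lgr6 1436218_at -1.46 and -1.16 in place of -1.61. Probe sets marked dim did not enter the fit across the array.

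The profiles over the 6 hearts, each centred on its own mean, were set against those of all other named genes that entered the fit. The genes closest to Sost 1450179_at by root mean square difference were the keratin gene Krt80 (0.30 on the log2 scale), the germ cell RNA-binding protein gene Dazl (0.32) and Tm6sf1 (0.33), with differences of 3.39, 3.75 and 3.48. Krt80 and Dazl averaged 4.76 and 3.34 without Cre, under the level needed to enter the fit, so like Sost they entered through the hearts with Cre, and their differences and distances rest partly on dim values. Those closest to Lgr6 1436218_at were the tropomodulin gene Tmod4 (0.15), the matrix protein gene Egflam (0.19) and Smco1 (0.20), with differences of -1.72, -1.60 and -1.52. With hearts in 2 groups such likeness mostly reflects the size of the difference between the groups, and it is given as a description over 6 hearts.

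The rest of the Wnt pathway was followed through 91 genes in lists chosen by textbook role, each gene through its brightest probe set. Of these, 64 were bright enough to test, 25 were too dim and 2 were not named in the annotation. In the limma fit 7 of the 64 rose with Cre and 0 fell, beside 4.20% of all 13062 tested genes that rose and 2.04% that fell. The median difference of the 64 genes was 0.06, against -0.01 over all tested genes.

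Of the 16 tested receptor and co-receptor genes, 3 rose with Cre and 0 fell, with a median difference of 0.12 (0.06 to 0.18 over the alternatives). Fzd2, a Frizzled receptor, read 6.40, 7.19 and 7.25 with Cre, against 5.48, 5.42 and 5.81 without Cre. It rose by 1.38 ± 0.23 (SE; limma adjusted p = 0.0093, or 0.054 without aMHC_Cre 2), and its other 2 probe sets rose by 1.55 and 1.10, the first of them tested only because of its values with Cre. Ror1, a receptor tyrosine kinase that binds Wnt5a, read 8.35, 8.09 and 8.25 with Cre, against 7.11, 6.69 and 6.88 without Cre. It rose by 1.34 ± 0.14 (SE; limma adjusted p = 0.0010), and its other probe sets, too dim to test, differed by 0.84 and 0.40. Fzd1 rose by 0.76 ± 0.18 (SE; limma adjusted p = 0.041), but lost its call without any of 5 of the hearts (adjusted p = 0.078 to 0.12), and its other probe set differed by -0.00 (adjusted p = 1.00). The co-receptor Lrp5 was too dim to test, Lrp6 differed by 0.29 (adjusted p = 0.31), and Lrp4, which binds sclerostin, by -0.04 (adjusted p = 0.92).

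Among Wnt ligands 10 of 19 were tested, 1 rose and 0 fell, with a median of 0.01 (-0.06 to 0.14 over the alternatives). Wnt9a rose by 0.62 ± 0.13 (SE; limma adjusted p = 0.025), reading 6.49, 6.45 and 6.40 with Cre, against 5.83, 5.65 and 6.00 without Cre. Its call was lost without any of 5 of the hearts (adjusted p = 0.062 to 0.10). The genes of Wnt secretion, Porcn (0.43 ± 0.14, adjusted p = 0.13) and Wls (0.37 ± 0.14, adjusted p = 0.20), did not pass. Neither did any of the 4 tested genes of the R-spondin branch around Lgr6. There the ligand gene Rspo3 differed by 0.40 ± 0.26 (adjusted p = 0.50) and the receptor gene Lgr4 by 0.27 ± 0.14 (adjusted p = 0.38), while Lgr5, Rspo1, Rspo4 and Rnf43 were too dim to test.

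Of 5 tested extracellular inhibitors that are not among the 9 genes, Igfbp4, an insulin-like growth factor binding protein that can also hinder Wnt receptors, rose and 0 fell. It read 10.32, 10.60 and 10.76 with Cre, against 9.66, 9.31 and 9.62 without Cre. It rose by 1.03 ± 0.15 (SE; limma adjusted p = 0.0060), and its other 5 probe sets rose by 0.70 to 1.07. Dkk1, Dkk2, Dkk4 and Dkkl1, relatives of Dkk3, and Sostdc1, a relative of Sost, were too dim to test.

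Of 9 tested genes that respond to Wnt signalling in other settings, 2 rose and 0 fell. Their median of 0.21 became 0.52 with the stricter filter on dim probe sets and 0.10 with 64 added to the unlogged signal. Ccn4 (Wisp1), a matricellular protein gene, read 6.98, 6.86 and 7.13 with Cre, against 4.84, 4.29 and 4.90 without Cre. It rose by 2.32 ± 0.18 (SE; limma adjusted p = 0.00020), and by 1.09 with 64 added to the unlogged signal. Its mean without Cre, 4.68, lies under the level needed to enter the fit, so Ccn4 too was tested only because of its values with Cre. Cd44, a hyaluronan receptor gene, rose by 1.20 ± 0.13 (SE; limma adjusted p = 0.0014). Its other tested probe sets rose by 1.06 and 1.02, the second of them tested only because of its values with Cre. A dim probe set of Cd44 that was not tested differed by -0.83 ± 0.32 (SE). Ccn4 and Cd44 are also expressed in contexts unrelated to Wnt, and the part of Wnt signalling in these values was not tested. Axin2, the most widely used readout of β-catenin signalling, differed by 0.31 (adjusted p = 0.16) and Nkd1 by -0.02 (adjusted p = 0.97). Axin2 did not overlap between the groups, reading 6.96, 6.89 and 6.97 with Cre, against 6.68, 6.65 and 6.56 without Cre. Ccnd1 differed by 0.74 (limma adjusted p = 0.095), also without overlap. Sp5 and Myc differed by -0.33 (limma adjusted p = 0.29) and -0.31 (adjusted p = 0.37), and their groups overlapped. Of the 9 differences 6 were positive. Of the 9 tested genes 5 were higher without overlap and 0 lower, beside 9.44% and 10.0% of all non-control probe sets. None of 18 intracellular components passed in the fit as reported, with a median of 0.03 (-0.03 to 0.07 over the alternatives). Apc, a scaffold of the complex that degrades β-catenin, differed by 0.29 ± 0.13 (adjusted p = 0.28) through its brightest probe set. Its other tested probe sets differed by 0.51 (adjusted p = 0.049) and 0.55 (adjusted p = 0.072), and a dim one that was not tested by -0.04. With genes taken as means over their probe sets, Apc was called (limma adjusted p = 0.034). Tnik differed by -0.21 ± 0.23 (adjusted p = 0.71) through its brightest probe set. Its other tested probe sets differed by -0.10, -0.15 and 0.14. Axin2, Nkd1, Lrp4 and Lrp6 are named here because of their roles, and Ccnd1, Sp5 and Myc because of their differences, all after their values had been seen.

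**Figure D3:**
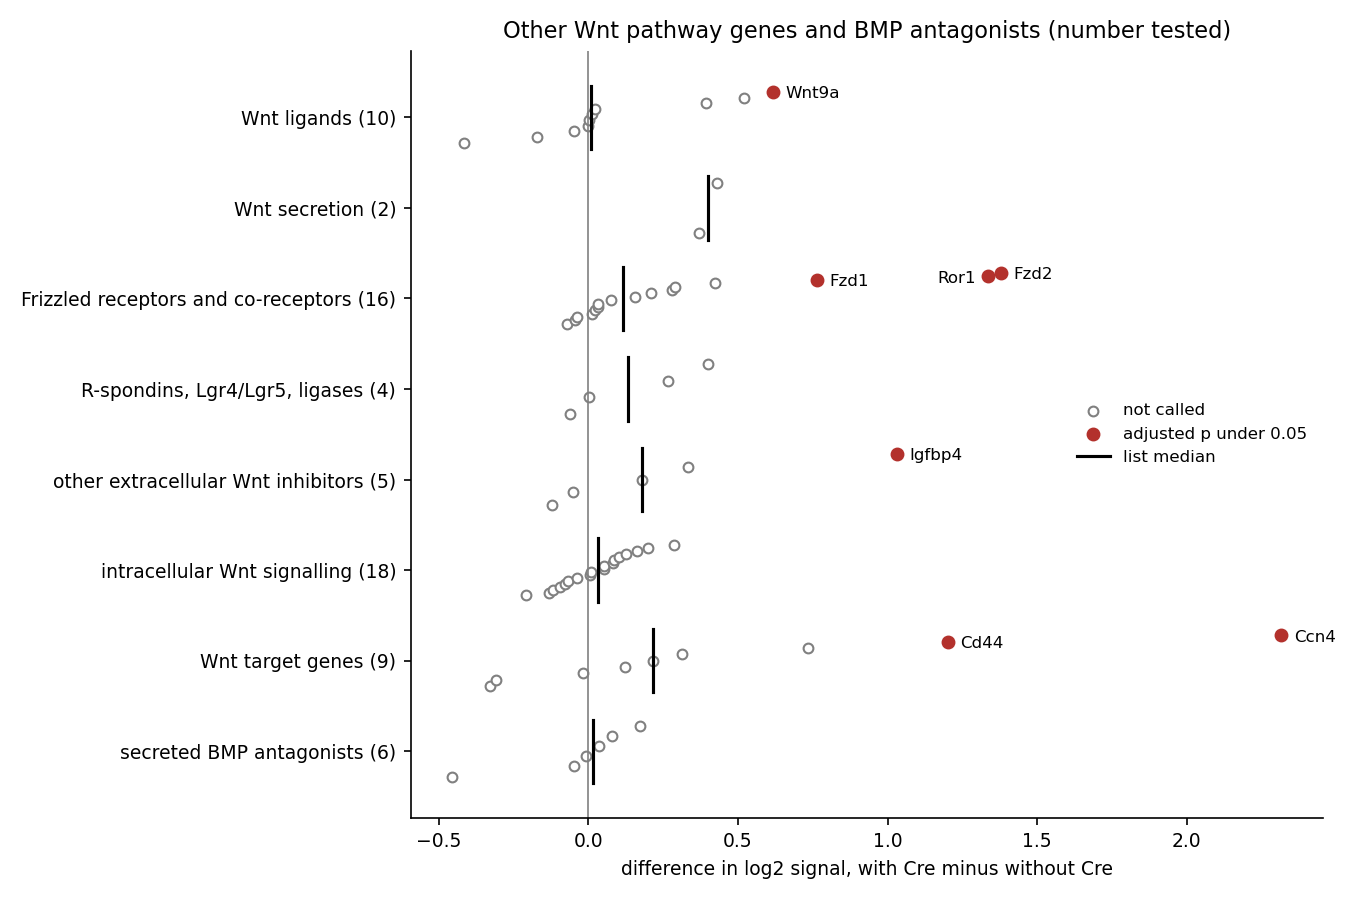
Difference in log2 signal, hearts with Cre minus hearts without Cre, for each tested gene of the Wnt pathway lists and of a list of secreted antagonists of bone morphogenetic proteins, with filled red points for genes past the threshold, open points for the others and a black line at each list's median. The 7 genes past the threshold all lie to the right of 0, from Wnt9a at 0.62 to Ccn4 at 2.32.

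Markers of cell types that the apex can hold were read beside these values. In bulk tissue a change in the number of cells of a type and a change in RNA per cell cannot be told apart. Of 11 tested fibroblast markers 6 rose and 0 fell, with a median of 0.55, led by Col1a1 (1.41 ± 0.21 SE, adjusted p = 0.0064) and Postn (1.36 ± 0.19, adjusted p = 0.0049). Their summed unlogged signal was 18262, 18808 and 20902 with Cre, against 11778, 13929 and 12825 without Cre. The other 5 did not pass: Tcf21 at 0.54 (adjusted p = 0.15), Dcn at 0.33 (0.24), Pdgfra at 0.21 (0.43), Thy1 at -0.16 (0.72) and Fap at -0.23 (0.58). Among the hearts with Cre, aMHC_Cre 3 read highest in 7 of the 9 member probe sets that were higher without overlap. These 7 belong to Sfrp1, Sfrp2 and Frzb only, so probe sets of the same gene are counted more than once. Sost 1450179_at read highest in aMHC_Cre 2 and Dkk3 1417312_at in aMHC_Cre 1. The share over all probe sets was not counted. aMHC_Cre 3 also had the highest sum of the 3 hearts with Cre for 5 of the 10 marker lists. These were fibroblast, epicardium, smooth muscle, macrophage and adipocyte, the last of them Lep alone. What this order reflects was not tested.

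Of 3 tested epicardial and mesothelial markers 2 rose, Aldh1a2 by 1.64 ± 0.29 (SE, adjusted p = 0.013) and Upk1b by 0.63 ± 0.15 (adjusted p = 0.041). Tbx18 differed by 0.03 (adjusted p = 0.96), and its groups overlapped. The sums of these 3 markers were 539 to 749 with Cre and 297 to 386 without Cre, while Wt1, Upk3b and Msln were too dim to test. Of 3 tested atrial markers 2 rose, Myl7 and Nppa, while Myl4 differed by -0.02 and Sln and Bmp10 were too dim to test. Myl7 averaged 11.02 with Cre and 3.72 without Cre, so it entered the fit only through the hearts with Cre, and the size of its difference of 7.30 rests on dim values. Nppa averaged 13.70 with Cre, near the array maxima of 13.97 to 14.00, and 11.67 without Cre, a difference of 2.03. The atrial sums were 15522 to 16170 with Cre and 3127 to 4677 without Cre. None of 7 smooth muscle and pericyte markers passed (sums of 9931 to 11229 with Cre and 8520 to 10943 without Cre), and none of 4 bone and cartilage markers (829 to 1008 with Cre and 688 to 931 without Cre). The bone matrix genes Dmp1, Phex and Ibsp were too dim to test. None of 4 Schwann cell and nerve markers passed, but all 4 differences were positive, with a median of 0.30, and the sums did not overlap (291 to 362 with Cre and 236 to 278 without Cre). None passed among 7 cardiomyocyte, 6 endothelial and 7 macrophage markers, and the only adipocyte marker tested did not pass either. The cardiomyocyte sums were 80693 to 83939 with Cre and 82574 to 85725 without Cre, so the markers fit heart muscle in both groups. They do not check that the tissue was apex. The part of any other cell type in the values of the 9 genes was not tested.

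**Figure D4:**
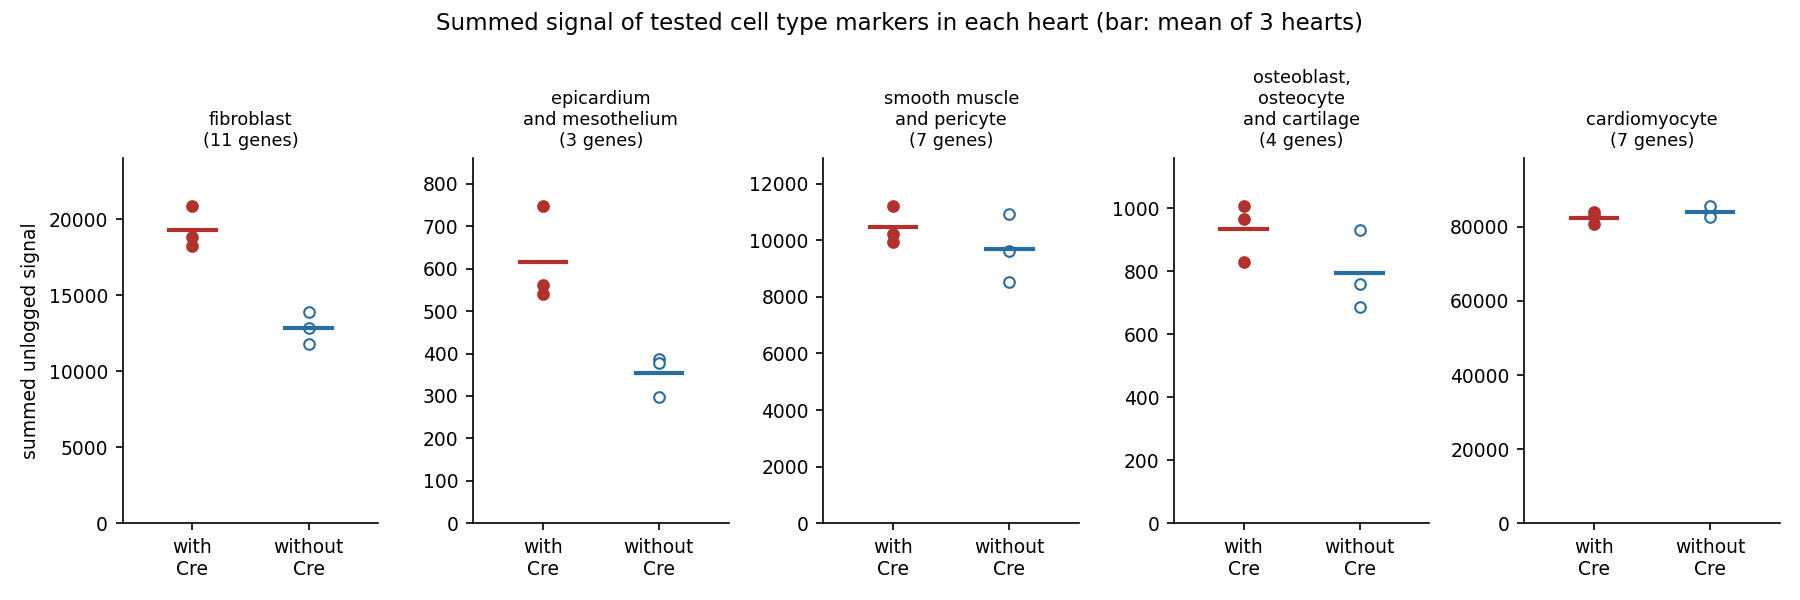
Summed unlogged signal of the tested markers of 5 cell types in each heart, with filled red points for hearts with Cre, open blue points for hearts without Cre and bars at the mean of 3 hearts. Each panel has its own vertical axis starting at 0. Fibroblast and epicardial sums do not overlap between the groups, smooth muscle, bone and cartilage, and cardiomyocyte sums do.

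Array medians ranged from 5.72 to 5.81 on the log2 scale, and pairs of arrays correlated at 0.980 to 0.987 within groups and at 0.964 to 0.973 between groups across tested probe sets. The targeted gene Zfpm2 has 2 probe sets that moved in opposite directions. The first read 5.46, 5.61 and 5.65 with Cre, against 6.34, 6.40 and 6.65 without Cre, and the second 10.71, 10.48 and 10.50 with Cre, against 8.86, 8.83 and 8.95 without Cre. Neither alone checks the deletion, because the part of the gene that each reads is not stated.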

How the data were processed

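The log2 values deposited by the authors came from PLIER, a method that merges the probes of a probe set, per the submitters' processing notes. PLIER's settings and the scaling between arrays are not stated in the sources used here. The log base was read from array maxima of 13.97 to 14.00. Values were used as deposited. The 64 control probe sets and the 40% of the other 45037 with the lowest mean over 6 arrays were left out, and 27022 were fitted by lmFit and eBayes (limma 3.58.1, R 4.3.3) with two-sided p-values adjusted by Benjamini-Hochberg over all of them and a threshold of 0.05. They set each difference between the groups against the spread between hearts. With an array per heart this spread also holds technical noise, and the fit moderates it by the spread of all fitted probe sets. The procedure was tested on simulated data. Dim members come from the same fit without this filter. The titles call the hearts biological replicates. Detection calls were not used here, and array number limits precision.

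The annotation gives 1 gene symbol for 34945 probe sets. Pathway and marker genes were read through their brightest probe set. From each pathway list up to 4 genes past the threshold were named, or up to 2 as values where none passed. From each marker list up to 2 were named. Other named genes complete a count or were chosen after their values were seen. The members, lists and tests were chosen with earlier results of these data known. Alternatives were other filters, normalizations, variance settings, array weights, thresholds, amounts added to the unlogged signal, the replicate number as a block, gene means and leaving out each heart.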

Additional observations from a re-analysis of the deposited data

How the results depend on the processing

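Of the alternatives, 12 could change a member difference (the variance setting and the replicate block could not), and of the 216 values they gave for the 18 probe sets 202 moved by less than 1 SD between replicates. All 14 larger moves came with an amount added to the unlogged signal. The sign held throughout for the 11 probe sets whose groups did not overlap, and changed in some alternative for 3 others (1 of Sfrp1 and both of Sfrp5) when single hearts were left out. The number of probe sets called over the array was 275 without a filter on dim probe sets, 909 with a replicate block, 529 at a threshold of 0.01 and 2220 at 0.1, against 1412 as reported, and 600 to 1075 with single hearts left out (600 without aMHC_Cre 2, 905 without aMHC_Cre 3, 913 without no_Cre 1 and 923 without aMHC_Cre 1). The number of member probe sets called was 2 without a filter, 5 with the stricter filter on dim probe sets, which leaves 8 of them in the test, and 4 at a threshold of 0.01, against 8 as reported, and 4 to 8 with single hearts left out. The number of genes called in the pathway lists, secreted BMP antagonists included, was 3 without a filter (Ror1, Ccn4 and Cd44) and 12 at a threshold of 0.1, against 7 as reported, and 4 to 7 with single hearts left out, with 4 without aMHC_Cre 2. Without a filter the calls of Igfbp4 (adjusted p = 0.091) and Fzd2 (0.13) were lost. The cause of these moves was not tested. Samples of different groups that share a replicate number deviated with correlations of -0.06, 0.21 and -0.19, so the numbers were not taken as pairs. With the replicate block 7 member probe sets and 6 pathway genes were called, and Wnt9a lost its call (0.068). Signal near the low end of the scale limits the sizes given for Sost 1450179_at, Dkk3, the dim Frzb probe set, Ccn4 and Myl7.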

Other observations

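Secreted antagonists of bone morphogenetic proteins, another family of extracellular inhibitors to which the cystine-knot protein sclerostin is related by structure, were read in the same hearts. Of 6 tested genes 0 passed in the limma fit, with a median difference of 0.01 (-0.10 to 0.10 over the alternatives). Grem1, which encodes gremlin, read 5.79, 5.78 and 5.80 with Cre, against 6.16, 6.49 and 6.08 without Cre. The groups did not overlap, and the difference was -0.46 ± 0.13 (SE; adjusted p = 0.095). Bmper, which encodes a modulator of bone morphogenetic proteins in vessels, differed by 0.17 ± 0.20 (SE; adjusted p = 0.74). Nog and Chrdl1 were too dim to test.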
